A study of Rattus norvegicus with 6 samples.

Results

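Aldehyde dehydrogenases oxidise aldehydes to carboxylic acids, and a subset of them, the retinal dehydrogenases, makes retinoic acid from retinal. In the testis, retinoic acid is required for spermatogonia to differentiate and for germ cells to enter meiosis. The other enzymes clear aldehydes that arise from ethanol, lipids, amino acids and polyamines. The 9 genes described here are the retinal dehydrogenase genes Aldh1a1, Aldh1a2 and Aldh1a3, the Aldh1a1 paralog Aldh1a7, and Aldh1b1, Aldh2, Aldh3a2, Aldh7a1 and Aldh9a1. They were found by their symbol among the 35291 genes of the expression table, and each symbol labelled 1 gene. The set was chosen by gene family and with the changes of Aldh1a7 and Aldh1a1 between these same groups already known, so the differences of the 9 genes between diabetic and non-diabetic rats are given as a description, with no p-value, and whether a member met a criterion is stated only as a property of its values.

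The values came from RNA-Seq of testis from Sprague-Dawley rats, an outbred strain, with 3 diabetic (DM) and 3 non-diabetic (ND) animals. The DM rats had been fed a high-fat diet for 1 month, had received a single intraperitoneal dose of streptozotocin (STZ) at 35 mg/kg, a compound that destroys pancreatic beta cells, and were sampled 8 weeks after it. The ND rats had received citrate buffer. The diet of the ND rats and the age of either group are not given in the sources used here, so effects of diet and STZ cannot be told apart. Expression is in FPKM, fragment counts divided by transcript length and scaled to library size, so that levels can be compared between genes as well as between rats.

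The 6 libraries differed little. Their totals lay between 453304 and 478211 FPKM, and the depth in reads is unknown, but relative depths read from genes of low expression were between 0.893 and 1.09 of their mean, with overlapping groups. The tissue label is testis although the extraction protocol speaks of an adipose type, so both were checked by markers. The summed level of 6 spermatid genes, protamines and transition proteins among them, was between 10700 and 12900 FPKM, whereas the sum of 6 adipocyte genes was between 5.51 and 8.17 FPKM. The contrast of DM with ND was fitted by limma to log2(FPKM + 0.1) for 20338 genes, those whose mean reached 0.5 FPKM. A called gene is one with an absolute log2 fold change of 1 or more whose unadjusted p-value is also under 0.05. Fold changes on this scale understate the change of genes of low expression. The labels tie no DM rat to an ND rat, and the p-values measure the spread between these 6 animals.

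The retinal dehydrogenase genes differ in the sequence before their start sites, and the stretches of Aldh1a1, Aldh1a2 and Aldh1a3 are shown here. Any link between these sequences and the levels in DM or ND testes was not tested. RefSeq (build GRCr8) gave an entry for 7 of the 9 genes, and no entry was found for Aldh1a7 and Aldh2. Each stretch is the 250 bases before the annotated start, read 5′ to 3′ on the strand of the gene. They lie at chr1:227537370-227537619 (plus strand) for Aldh1a1, chr8:80758391-80758640 (plus strand) for Aldh1a2 and chr1:129427644-129427893 (minus strand) for Aldh1a3. Capitals mark matches to 4 motifs. The CCAAT box was searched as CCAAT and, for the other strand, as ATTGG. The GC box was searched as GGGCGG and, for the other strand, as CCGCCC. The TATA-like box was searched on the strand of the gene only, as TATAAA or as the overlapping form ATAAAA. The octamer was searched as ATGCAAAT and, for the other strand, as ATTTGCAT. The motifs were picked after the sequences had been seen.
Aldh1a1: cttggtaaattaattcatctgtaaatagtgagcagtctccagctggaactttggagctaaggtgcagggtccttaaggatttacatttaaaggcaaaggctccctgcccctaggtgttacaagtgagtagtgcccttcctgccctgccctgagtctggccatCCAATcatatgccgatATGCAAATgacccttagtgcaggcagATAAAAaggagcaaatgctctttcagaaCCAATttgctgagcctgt
Aldh1a2: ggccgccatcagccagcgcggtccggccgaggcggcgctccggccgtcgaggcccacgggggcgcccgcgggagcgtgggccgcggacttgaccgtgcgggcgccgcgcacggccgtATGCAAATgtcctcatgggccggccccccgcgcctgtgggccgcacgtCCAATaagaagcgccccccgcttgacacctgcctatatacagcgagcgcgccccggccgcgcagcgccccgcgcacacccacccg
Aldh1a3: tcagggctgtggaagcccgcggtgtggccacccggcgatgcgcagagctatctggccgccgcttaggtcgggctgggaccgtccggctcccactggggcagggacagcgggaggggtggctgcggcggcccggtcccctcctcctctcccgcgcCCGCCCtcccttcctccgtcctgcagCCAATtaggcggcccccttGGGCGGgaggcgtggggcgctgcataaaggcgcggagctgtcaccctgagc

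All 7 genes with an entry held a CCAAT box in this stretch, against 34% of the 33469 promoters of the same table and length. The octamer was present in Aldh1a1, at positions -72 to -65 with -1 as the last base before the start, and in Aldh1a2, at positions -133 to -126. It occurred in 1.56% of all promoters. Aldh1a1 was the only one of the 7 with a match to the letters searched as a TATA-like box, found in 15.2% of all promoters. Close letters that were not searched, tatata in Aldh1a2 and cataaa in Aldh1a3, also stand in the stretches shown. A GC box, found in 30.5% of all promoters, was absent from the stretches of Aldh1a1, Aldh1a2 and Aldh1b1 and present in those of Aldh1a3, Aldh3a2, Aldh7a1 and Aldh9a1. Guanine and cytosine made up 46.4% of the Aldh1a1 stretch, 77.2% of that of Aldh1a2 and 73.6% of that of Aldh1a3. Since the motifs were picked after these sequences had been seen, nothing is read from their presence beside the shares of all promoters. These matches describe letters in a window and not sites at which a factor binds.

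In the ND testes Aldh1a2 had the highest level of the 9 genes, at 69.0 ± 4.38 FPKM (SD, n = 3), followed by Aldh1a1 at 49.4 ± 5.67 FPKM and Aldh2, the mitochondrial enzyme that oxidises acetaldehyde, at 32.5 ± 7.61 FPKM (SD, n = 3 each). Aldh3a2, the fatty aldehyde dehydrogenase, was at 22.9 ± 0.667 FPKM, and Aldh9a1, an enzyme of carnitine synthesis, was at 20.2 ± 1.26 FPKM (SD, n = 3 each). Aldh7a1, which acts in lysine breakdown, was at 12.3 ± 0.477 FPKM, and Aldh1a3 was at 7.93 ± 1.58 FPKM (SD, n = 3 each). Aldh1a7 was at 0.685 ± 0.174 FPKM and the mitochondrial Aldh1b1 at 0.0917 ± 0.0542 FPKM (SD, n = 3 each). In the ND rats the ranges of neighbours in this order did not overlap. The order differed in the DM rats, where Aldh2 at 28.0 ± 5.80 FPKM stood above Aldh1a1 at 27.4 ± 4.52 FPKM (SD, n = 3 each) with overlapping ranges. The lowest DM value of Aldh1a1, 23.5 FPKM, also lay under the highest of Aldh3a2, 23.6 FPKM. The 9 genes held between 87.1% and 88.5% of the summed FPKM of all 18 Aldh symbols in the table, in both groups alike.

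**Figure D1:**
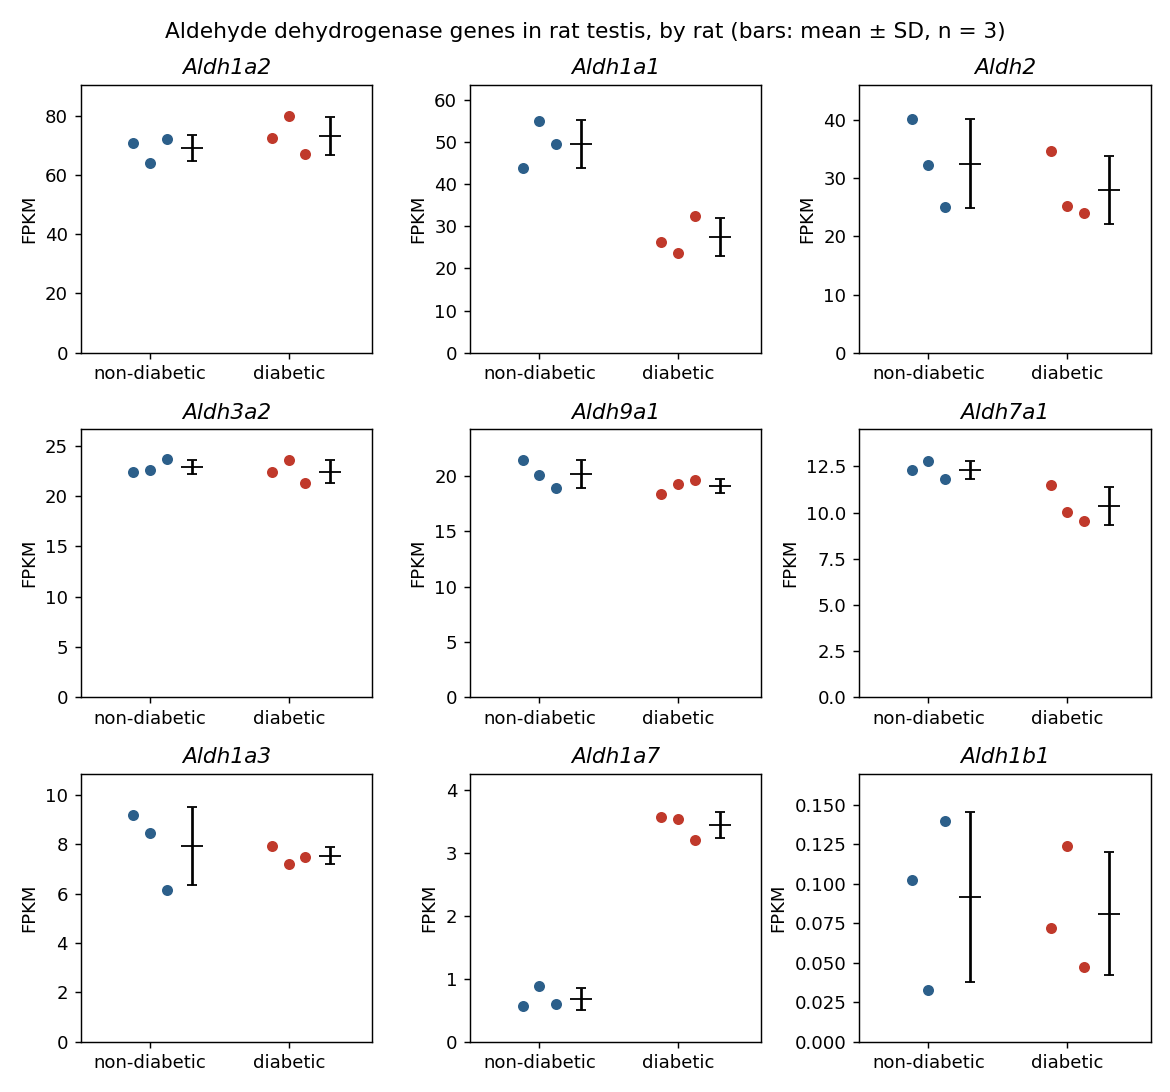
Level of each of the 9 aldehyde dehydrogenase genes in FPKM (linear axes from 0, one scale per panel), with a point per rat, the 3 non-diabetic rats in blue and the 3 diabetic rats in red, and bars for the mean ± SD. The groups are separate for Aldh1a1, Aldh1a7 and Aldh7a1 and overlap for the other 6 genes.

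Separate groups were found for 3 of the 9 genes, Aldh1a7, Aldh1a1 and Aldh7a1, and for 13.0% of all genes tested. Of the 9 genes, 8 reached the filter on low expression, and 1 of these, Aldh1a7, met the criterion for a call, as did 1.24% of all genes tested. Since the known changes of Aldh1a7 and Aldh1a1 entered the choice of genes, nothing is read from these counts. The median log2 fold change of the 8 genes was -0.064, and that of all genes tested was -0.021.

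Aldh1a7 encodes a cytosolic enzyme of rodents that is close to Aldh1a1 in sequence, and the table lists it as ENSRNOG00000017878. It was at 3.58, 3.55 and 3.21 FPKM in the DM rats and at 0.575, 0.885 and 0.594 FPKM in the ND rats. Every DM rat was above every ND rat, and the spread was narrow in the DM group, with a coefficient of variation of 5.87% against 25.4% in the ND group. The mean rose 5.03-fold, to 3.45 ± 0.202 FPKM (SD, n = 3), a log2 fold change of 2.20 (standard error, SE, 0.20). Among the genes tested, 30 had a higher log2 fold change. With a pseudocount of 1 in place of 0.1 the log2 fold change was 1.40.

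Aldh1a1, which encodes retinal dehydrogenase 1, is listed as ENSRNOG00000017619. Its level was 26.3, 23.5 and 32.4 FPKM in the DM rats and 43.7, 55.1 and 49.5 FPKM in the ND rats. The highest DM rat was thus below the lowest ND rat. The DM mean was 0.554 of the ND mean, and the log2 fold change was -0.86 (SE 0.13), short of the 1 required for a call.

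The directions of the paralogs were opposite, but their amounts were unequal. In FPKM, Aldh1a7 was higher by 2.76 in the DM rats and Aldh1a1 differed by -22.0, so that the rise equalled 12.5% of the fall. How the authors assigned reads that match both genes is not given in the sources used here, and the values of either gene alone are uncertain to that extent. If each such read was counted once, the sum of the pair holds it whichever gene received it, apart from any difference in transcript length. Whether each was counted once is not known. The sum was 29.9, 27.1 and 35.6 FPKM in the DM rats and 44.3, 55.95 and 50.1 FPKM in the ND rats. The groups of the sum were separate, with means of 30.9 ± 4.33 and 50.1 ± 5.83 FPKM (SD, n = 3 each) and a log2 fold change of -0.70 (SE 0.12). Aldh1a7 made up 11.96%, 13.1% and 9.03% of the sum in the DM rats and 1.30%, 1.58% and 1.19% in the ND rats. The share was therefore 11.4 ± 2.10% in DM and 1.36 ± 0.205% in ND testes (SD, n = 3 each).

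**Figure D2:**
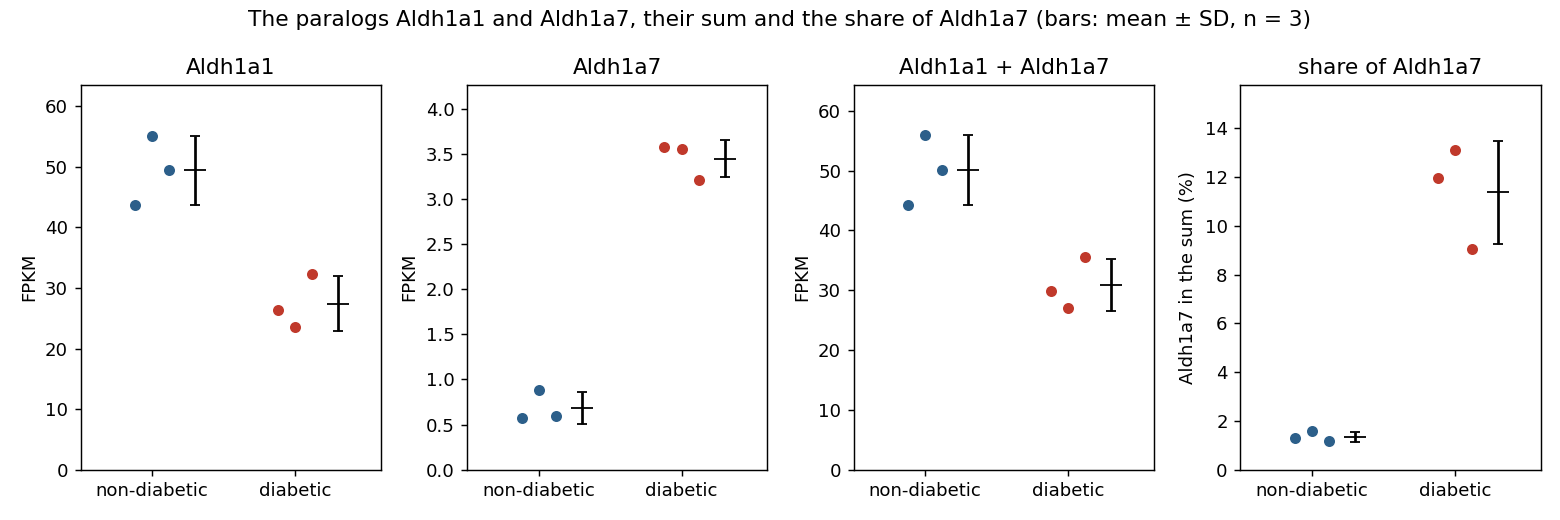
Levels of Aldh1a1, Aldh1a7 and their sum in FPKM, and the share of Aldh1a7 in the sum in percent, with a point per rat (3 non-diabetic in blue, 3 diabetic in red) and bars for the mean ± SD on linear axes from 0. Aldh1a7 lies higher and Aldh1a1 lower in the diabetic rats, the sum lies between 27.1 and 35.6 FPKM against 44.3 to 55.95 FPKM, and the share is between 9.03% and 13.1% against 1.19% to 1.58%.

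The other retinal dehydrogenase genes had overlapping groups. Aldh1a2, which encodes retinal dehydrogenase 2, was at 72.5, 79.8 and 67.1 FPKM in the DM rats and at 70.8, 64.0 and 72.2 FPKM in the ND rats. Its log2 fold change was 0.083 (SE 0.083). Aldh1a3, which encodes retinal dehydrogenase 3, was between 7.21 and 7.91 FPKM in the DM rats, inside the ND range of 6.15 to 9.18 FPKM, with a log2 fold change of -0.054 (SE 0.15). Summed over Aldh1a1, Aldh1a2 and Aldh1a3, the level was 106.7, 110.6 and 106.9 FPKM in the DM rats and 123.7, 127.5 and 127.9 FPKM in the ND rats. These sums were separate and narrow in spread, with a log2 fold change of -0.23 (SE 0.049). Aldh1a2 was between 2.07 and 3.39 times the level of Aldh1a1 in the DM rats and between 1.16 and 1.62 times its level in the ND rats.

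Of the members apart from the retinal dehydrogenase genes and Aldh1a7, Aldh7a1 alone had separate groups. It was at 11.49, 10.1 and 9.52 FPKM in the DM rats and at 12.3, 12.8 and 11.8 FPKM in the ND rats, and the nearest rats of the groups were at 11.49 and 11.8 FPKM. Its log2 fold change of -0.25 (SE 0.092) was much smaller than that of Aldh1a1. Aldh2 ranged from 24.0 to 34.7 FPKM in the DM rats and from 25.0 to 40.2 FPKM in the ND rats, with coefficients of variation of 20.7% and 23.4%, and its log2 fold change was -0.21 (SE 0.20). The groups also overlapped for Aldh9a1, at a log2 fold change of -0.075 (SE 0.073). Aldh3a2 had a log2 fold change of -0.030 (SE 0.066) and stayed between 21.4 and 23.7 FPKM in all 6 rats. Aldh1b1 was between 0.0330 and 0.140 FPKM in all rats, below the filter, and no fold change is given for it.

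Of the 9 Aldh genes of the table that are outside the set, 7 were tested and had absolute log2 fold changes below that of Aldh1a1. In limma 0 of them were called, with 1 of them, Aldh1l1, at an unadjusted p-value below 0.05. Aldh1l1, which encodes the cytosolic 10-formyltetrahydrofolate dehydrogenase, was at 1.34, 1.31 and 1.27 FPKM in the DM rats and at 2.16, 2.07 and 2.06 FPKM in the ND rats. The groups of Aldh1l1 were far apart relative to their spread, with a log2 fold change of -0.64 (SE 0.15), but limma gave an adjusted p of 0.381. Aldh1l2, its mitochondrial counterpart, had a log2 fold change of -0.19 (SE 0.21, limma adjusted p = 0.911). Aldh6a1, an enzyme of valine breakdown, was between 15.5 and 16.3 FPKM in the DM rats and between 17.0 and 18.3 FPKM in the ND rats, with a log2 fold change of -0.14 (limma adjusted p = 0.712). Aldh18a1, an enzyme of proline synthesis, was at 0.14 on the log2 scale (limma adjusted p = 0.919). The median log2 fold change of these 7 genes was -0.064. Over all 18 Aldh symbols the summed level was 218.4 ± 5.57 FPKM in DM and 244.2 ± 6.14 FPKM in ND testes (SD, n = 3 each). That difference is a net of falls and rises. The fall of Aldh1a1 equalled 85.6% of it, while Aldh1a7 rose. Without Aldh1a1 and Aldh1a7 the sums overlapped, at 187.6 ± 9.49 and 194.1 ± 10.0 FPKM (SD, n = 3 each).

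**Figure D3:**
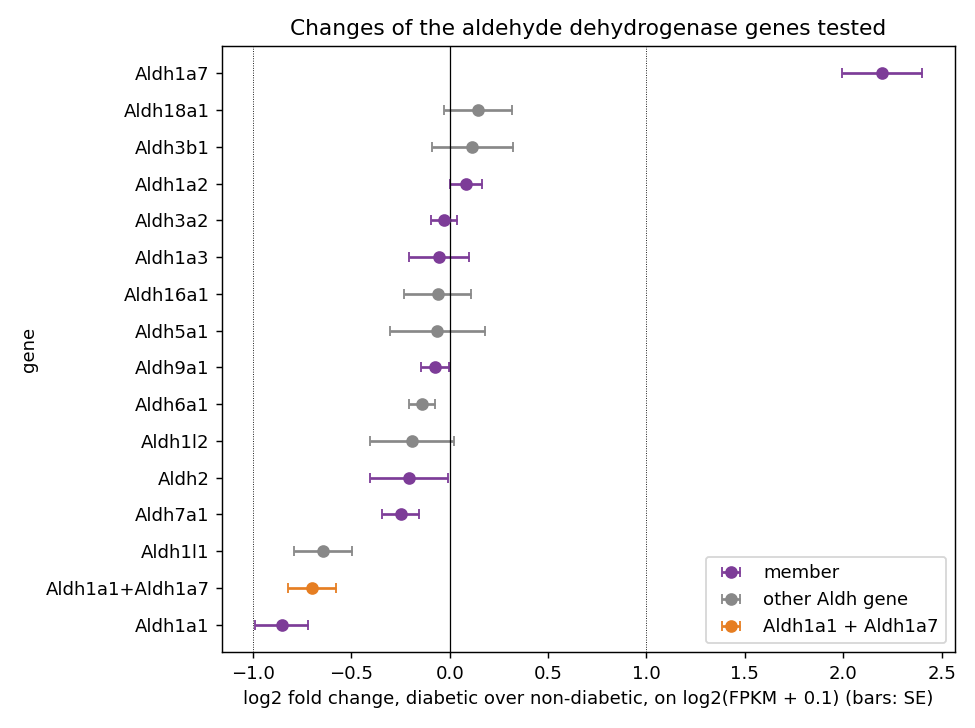
Log2 fold change, diabetic over non-diabetic, on log2(FPKM + 0.1), for the 15 Aldh genes tested and for the sum of Aldh1a1 and Aldh1a7, with bars for the standard error and dotted lines at -1 and 1. Aldh1a7 lies at 2.20, the sum at -0.70, Aldh1a1 at -0.86 and Aldh1l1 at -0.64, and the other genes lie between -0.25 and 0.14.

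Most Leydig cell genes measured were lower in the DM testes, as Aldh1a1 was. Of 8 marker genes listed for these cells, which make testosterone, 7 were found in the table. The list was chosen with earlier results of these data known, so its counts are a description. Of the 7, Cyp17a1, Cyp11a1, Hsd17b3, Star and Insl3, 5 in all, were called lower in the DM rats, against 0.846% of all genes tested. The limma adjusted p was 0.486 for Cyp11a1, 0.624 for Hsd17b3, 0.5505 for Star and 0.484 for Insl3. The groups of Hsd17b3 overlapped. Lhcgr had separate groups and a log2 fold change of -0.999, short of a call (limma adjusted p = 0.0559). Nr5a1, a regulator of steroid synthesis that is also in this list, had a log2 fold change of -0.016 with overlapping groups. Cyp17a1, a step of androgen synthesis, had a log2 fold change of -1.60 (limma adjusted p = 0.0415), where 0.0344% of all genes tested had an adjusted p-value below 0.05. Its adjusted p was above 0.05 under 7 of 15 alternatives, among them leaving out DM replicate 1 (0.122), DM replicate 2 (0.125), DM replicate 3 (0.107) or ND replicate 3 (0.147) and the block for the replicate number (0.186). The summed level of the 7 genes was 44.5, 31.2 and 60.1 FPKM in the DM rats and 107.8, 120.7 and 87.3 FPKM in the ND rats. The ranges of these sums were separate. Within the DM group the rats stood in the same order for this sum and for Aldh1a1, and within the ND group they did not. Of the marker genes of the other cell types, which were Sertoli cells, spermatogonia, spermatocytes, spermatids, macrophages, peritubular cells, endothelium, adipocytes and liver, 46 were tested and limma called 0, with 4 at an unadjusted p-value below 0.05, all lower in the DM rats. Of these, 2 were of the 5 macrophage genes tested. Csf1r, the receptor for a macrophage growth factor, was at 1.105, 1.32 and 1.38 FPKM in the DM rats and at 2.22, 2.54 and 2.06 FPKM in the ND rats, a log2 fold change of -0.795 (SE 0.17, limma adjusted p = 0.336). Cd68, a lysosomal protein of macrophages, was at 0.354, 0.736 and 0.389 FPKM in the DM rats and at 1.44, 0.990 and 0.754 FPKM in the ND rats, a log2 fold change of -0.98 (SE 0.36, limma adjusted p = 0.629). The groups of Csf1r and Cd68 were separate, with log2 fold changes about as large as that of Aldh1a1. The other 2 were Kit, of spermatogonia, at -0.30 and Serpina1, from the liver list, at -0.16. Serpina1 averaged 159.3 FPKM in DM and 177.3 FPKM in ND testes. Alb, of the same list, averaged 0.705 and 0.713 FPKM, so Serpina1 is not read as a sign of liver tissue. The list medians lay between -0.23 for macrophages and 0.10 for Sertoli cells, against -1.24 for Leydig cells. The summed level of the 6 macrophage genes was between 25.9 and 31.05 FPKM in the DM rats and between 30.9 and 32.6 FPKM in the ND rats, most of it from Mrc1, at 20.8 and 21.65 FPKM on average. In whole testis, fewer cells of a type and less RNA per cell cannot be told apart, and the part of the Leydig cell and macrophage genes in the lower level of Aldh1a1 was not tested.

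In the pathways around these enzymes, 9 of 43 genes tested had an unadjusted p-value below 0.05, and all 9 were lower in the DM rats. Over all genes tested 7.46% had such a p-value, and 4.99% had it with lower values in the DM rats. The pathway lists were chosen with earlier results of these data known, so their counts are a description. Of 20 genes listed for the formation of retinal from retinol and its reversal, 14 were tested and limma called 0, with 3 at an unadjusted p-value below 0.05, each of them lower in the DM rats. Their median log2 fold change of -0.045 was near that of all genes. Adh1, the class I alcohol dehydrogenase, was at 7.58 ± 3.035 FPKM in DM and 14.1 ± 2.50 FPKM in ND testes (SD, n = 3 each), which gave a log2 fold change of -0.95 (limma adjusted p = 0.506). Dhrs4, a retinal reductase, was at 1.54 ± 0.2996 and 2.93 ± 0.247 FPKM (SD, n = 3 each), which gave a log2 fold change of -0.90 (limma adjusted p = 0.2795). Dhrs3, which turns retinal back into retinol, had a log2 fold change of -0.61 (limma adjusted p = 0.414). Rdh10, which makes retinal, was at 16.7 FPKM in DM and 17.4 FPKM in ND testes on average, with overlapping groups. Rdh16, also of this list, had separate groups in the other direction, with a log2 fold change of 0.45 (limma adjusted p = 0.711). It was between 1.03 and 1.23 FPKM in the DM rats and between 0.738 and 0.856 FPKM in the ND rats. None of these genes passed the correction over all genes. Adh1, Dhrs4 and Dhrs3, named for the largest fold changes of the list, were lower in 3 of 3 DM rats than in every ND rat. Separate groups, in either direction, were found for 13.0% of all genes tested.

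Of 17 genes listed for the clearance of retinoic acid and the response to it, 12 were tested and limma called 0, with 1 at an unadjusted p-value below 0.05 and a median log2 fold change of -0.12. That 1 was Cyp26a1, which breaks down retinoic acid and is itself induced by it, at 0.451 ± 0.0522 FPKM in DM and 0.8496 ± 0.127 FPKM in ND testes (SD, n = 3 each), with a log2 fold change of -0.78 (limma adjusted p = 0.607). Cyp26b1, of the same list and higher in level, was between 10.4 and 11.4 FPKM in the DM rats. In the ND rats it was between 10.25 and 13.1 FPKM. The groups of Cyp26b1 overlapped, with a log2 fold change of -0.13 (limma adjusted p = 0.859). Stra6, a receptor for retinol binding protein, had a log2 fold change of -0.49 (limma adjusted p = 0.681), and Tgm2, a retinoic acid target, one of -0.20 (limma adjusted p = 0.835). Stra8 and Rec8, the genes by which retinoic acid starts meiosis, had log2 fold changes of -0.17 and -0.045 with overlapping groups.

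Of 18 genes listed for other ways of oxidising or reducing aldehydes, 13 were tested and limma called 0, with 3 at an unadjusted p-value below 0.05 and a median log2 fold change of -0.10. The 3 were Akr1b10 at a log2 fold change of -0.53 (limma adjusted p = 0.544), Xdh, which encodes xanthine dehydrogenase, at -0.49 (limma adjusted p = 0.473), and the aldehyde oxidase Aox1 at -0.46 (limma adjusted p = 0.354). Each of these, named for the largest fold changes of the list, had lower values in 3 of 3 DM rats than in every ND rat. Among all genes tested, 13.0% had separate groups. Of 14 genes of drug-inducible enzymes, listed because enzymes of the Aldh1a7 type respond to drugs in liver, 11 were in the table, 3 of them listed at 0 in every rat, and 4 were tested, with 2 at an unadjusted p-value below 0.05 and a median log2 fold change of -0.18. Cyp1b1, which oxidises retinol and steroids among other substrates, was the 1 gene of these lists that was called, at 10.2 ± 3.64 FPKM in DM and 21.4 ± 1.97 FPKM in ND testes (SD, n = 3 each). Its log2 fold change was -1.12 (limma adjusted p = 0.347), and without DM replicate 2 it was no longer called, leaving 0 calls in these lists. Without DM replicate 3 the calls were 3, Cyp1b1, Adh1 and Dhrs4, and without ND replicate 1 they were 2, Cyp1b1 and Adh1. Cyp1b1 was lower and Aldh1a7 higher in the DM rats, and any link between these genes was not tested. Adh1, Aox1 and Akr1b10 have close paralogs, so reads could be split between copies for them too.

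**Figure D4:**
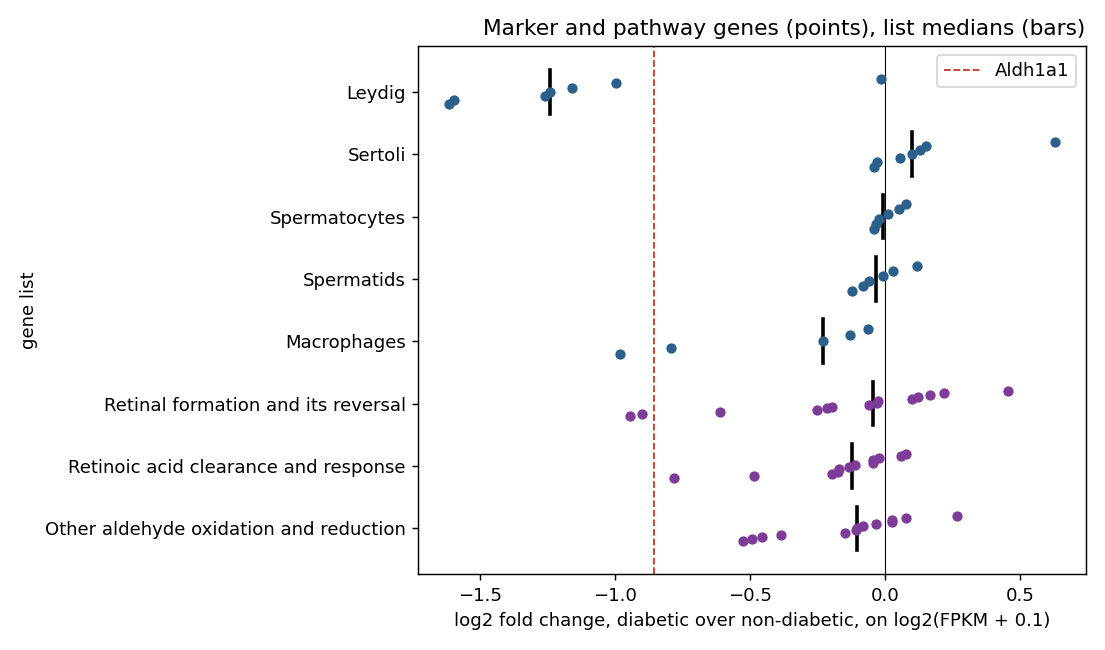
Log2 fold changes, diabetic over non-diabetic, on log2(FPKM + 0.1), of the genes tested in 5 marker lists (blue) and 3 pathway lists (purple), a point per gene with a bar at each list median and a dashed line at Aldh1a1. The Leydig median lies at -1.24, left of Aldh1a1 at -0.86, and the medians of the other lists shown lie between -0.23 and 0.10.

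The genes with profiles over the 6 rats most like those of the paralogs were also listed, by the root mean square difference of log2 values after each gene's own mean was subtracted. For Aldh1a7 they were Mfn2, at a difference of 0.258, AABR07058815.1 at 0.328 and Palm at 0.422. For Aldh1a1 they were Atp2b3, at a difference of 0.0533, Ifi47 at 0.0588 and Gstm1 at 0.0686. The profiles near Aldh1a7 had separate groups with higher values in the DM rats. Those near Aldh1a1 were closer by this measure and had separate groups with lower values in the DM rats. These directions follow from picking genes by likeness to profiles that are themselves separate. Among the genes tested, 478 had a log2 fold change below that of Aldh1a1 and 30 had one above that of Aldh1a7. Gstm1, a glutathione transferase whose close paralogs could share its reads, was at 45.9, 40.1 and 57.6 FPKM in the DM rats and at 72.7, 90.6 and 75.95 FPKM in the ND rats. With 6 rats and 20338 genes, close profiles are a description of these samples.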

How the data were processed

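Testis RNA-Seq from 3 DM and 3 ND rats was used, grouped by the sample labels. The authors compared reads with rRNA by BWA, used STAR for alignment and StringTie for assembly, and screened transcripts with DESeq2. The authors deposited gene FPKM, and the genome build, tool versions and treatment of reads shared by paralogs are not given in the sources used here. FPKM are not counts, so limma 3.58.1 (R 4.3.3, lmFit, eBayes with trend, two-sided, no block, Benjamini-Hochberg adjustment over all 20338 genes tested) was applied to log2(FPKM + 0.1), after its script was tested on simulated data. An exact permutation test of 3 rats against 3 cannot go below p = 0.1. The sum of Aldh1a1 and Aldh1a7 replaced both genes in a fit of its own. The members and lists were chosen with earlier results of these data known. Named genes were the members, genes of each list and other Aldh genes that were called or otherwise up to 3 with the largest absolute log2 fold change, and the 3 profiles nearest to each paralog. Rdh10, Rdh16, Cyp26b1, Stra8, Rec8, Aldh6a1 and the marker genes were added after their values were seen. Alternatives were pseudocounts of 1 and 0.01, a minimum of 1 FPKM or none, TPM, scaling by median ratios, robust eBayes, eBayes with no trend, a block for the replicate number, and each rat left out. Same-numbered rats are different animals, and their deviations correlated across genes at 0.106, 0.0153 and 0.0979.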

Additional observations from a re-analysis of the deposited data

How the results depend on the processing

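The fold changes kept their direction under all 15 alternatives for Aldh1a7, Aldh1a1, their sum, Aldh1a2, Aldh2, Aldh7a1 and Aldh9a1. That of Aldh1a7 was 1.40 at its lowest, with a pseudocount of 1, and 2.37 at its highest, without ND replicate 2, that of Aldh1a1 from -0.98 to -0.75, and that of the sum from -0.81 to -0.61. The sign of Aldh1a3 turned without ND replicate 1 (0.061) and without ND replicate 2 (0.0022), and that of Aldh3a2 turned without DM replicate 3 (0.0056). Aldh1a7 was the 1 member to meet the criterion of fold and p under every alternative, and the Aldh genes outside the set gave 0 calls under every alternative. The number of genes called in the pathway lists, marker lists not included, was 1. It ran from 0, without DM replicate 2, to 3, without DM replicate 3, with a count of 2 without ND replicate 1. Over all genes, 253 were called, against 91 with a pseudocount of 1 and 621 without a filter. At an adjusted p-value below 0.05 there were 7 genes, against 3 with low genes kept, 12 when eBayes used no trend and 4 with a block for the replicate number. With each rat left out it ran from 0 genes, without ND replicate 3 (1502 at an unadjusted p-value below 0.05), to 14, without ND replicate 1, with 4 genes without DM replicate 1. The cause of these shifts was not tested. The adjusted p of Cyp17a1 was above 0.05 under 7 of the alternatives, and without ND replicate 3 no gene, Cyp17a1 included, was below it. The block changed no call by fold and p of a member or pathway gene, and pairing by number rests on no shared animal. The depth in reads is unknown, which limits what can be said of genes as low as Aldh1b1.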
